A study of Arabidopsis thaliana with 12 samples.

Results

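The genes described here are 50 Arabidopsis thaliana genes known from mature pollen, pollen tubes and sperm cells. The rule names them by their known role and uses no measured value, though the members were chosen with earlier results of these data known. Of the 33610 gene IDs in the mRNA files, 43 belong to the pollen vegetative cell, the cell that grows the tube, and 7 belong to the sperm cells. The vegetative genes comprise actins and actin regulators, pectin methylesterases, leucine-rich repeat extensins (LRX), RALF peptides, receptor kinases, genes of signalling and secretion, calcium-dependent protein kinases (CPK), transporters and MIKC* transcription factors. The sperm genes are DUO1, DAZ1, MGH3, GCS1, GEX1, GEX2 and GEX3. All 50 were in the files, and 48 reached the mean of 1 FPKM over the 8 libraries that was asked of a gene before testing. GCS1 and GEX3 did not.

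The series asked how an artificial miRNA directed at SEAP1 affects small RNAs and mRNAs in inflorescences. An artificial miRNA is a designed small RNA, made in the plant, that guides cleavage of a chosen transcript. The amiR-SEAP1 plants (ecotype Columbia, 4 mRNA libraries) were set against wild type (WT Col, 4 mRNA libraries), with no further treatment and with 16 h of light and 8 h of dark at 22 °C for both. The sources used here do not give the promoter of the artificial miRNA, the number of transgenic lines or whether plants were pooled. The file headers divide the libraries into a set named AI (replicates 3 and 4) and a set named FLW (replicates 1 and 2), each with both genotypes. The headers name the amiR-SEAP1 libraries R155 in AI and R15 in FLW, and neither these names nor AI and FLW are explained, so a different line, harvest or stage in each set cannot be told apart.

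A mature Arabidopsis pollen grain is a vegetative cell that encloses a pair of sperm cells. On the stigma the vegetative cell extends a tube whose growth at the tip depends on an actin network, on delivery of pectin that is then modified by pectin methylesterases, on calcium and proton transport, and on ROP GTPases that respond to receptor kinases. RALF peptides from the tube act through receptor kinases and LRX proteins to keep the wall intact during growth. Sperm genes follow a separate programme led by the MYB factor DUO1, which drives the division that forms the sperm cells and switches on genes needed for fusion with the egg and central cell.

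FPKM counts the fragments on a gene, scaled to gene length and to the fragments mapped in the library. The sum of FPKM ranged over 680667 to 715611, and the steps of low values placed library depth at 1 to 1.165 times that of WT replicate 1. Among 822 well-covered genes, both libraries of a genotype in a set differed by a coefficient of variation of 1.472% to 1.733%, against 12.761% to 17.551% between sets, so such a pair was averaged and counted as 1 sample (n = 2 sets per genotype). The labels do not say whether replicates came from separate plants, and the p-values measure only the spread that remains after set and genotype. No RefSeq symbol or synonym matched SEAP1, so the target was not identified among the gene IDs. EMB140 (AT4G24270) was read as a check of the labels because earlier results of these data had singled it out, which makes it no independent check. It held 4.65 and 4.91 (AI) and 4.76 and 4.55 FPKM (FLW) in amiR-SEAP1, against 15.5 and 14.9 (AI) and 15.7 and 16.2 FPKM (FLW) in wild type. The genotypes did not overlap in either set, and the difference was -1.53 ± 0.11 on the log2 scale (SE, limma adjusted p = 0.269). Of marker lists for flower tissue, 16 of 17 tapetum and pollen wall genes, 8 of 8 pollen coat genes and 3 of 3 microspore genes reached a mean of 1 FPKM.

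The pollen genes lay lower in amiR-SEAP1 inflorescences than in wild type, by a modest amount, and no gene passed the FDR. Among the 48 tested members, 39 had a lower mean in amiR-SEAP1 in both sets, where 28.9% of all 20743 tested genes did. One member, AGL65, was higher in both sets, and 8 had opposite signs in the sets, against 36.7% and 34.4% of all genes. The median difference of the members, amiR-SEAP1 minus WT in log2(FPKM + 1), was -0.31 in AI and -0.37 in FLW. The median over all tested genes was 0.058 in AI and -0.0027 in FLW.

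In the limma fit on pair means with set and genotype as terms, 0 of 20743 genes passed an FDR of 0.05 for genotype, and the smallest adjusted p was 0.269. Called members numbered 0, which is the background of 0% in each direction. At an unadjusted limma p under 0.05, 25 members were lower and 0 were higher, against 7.16% lower and 6.95% higher among all genes (1485 and 1442 genes). The fit has 1 residual degree of freedom, and its calls depend on how the libraries are treated. With all 8 libraries taken as independent, 37 members were called lower and 1 higher (AGL65), where 18.3% of all genes were called lower and 22.5% higher. With the replicate number as a block, 32 members were called lower and 0 higher, where 11.1% of all genes were called lower and 13.7% higher. With a correlation estimated within pairs and no term for set, 0 members were called, where 0.082% of all genes were called lower and 0.231% higher. No single count of called members holds across these fits, so the levels below are described by their values.

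All 4 amiR-SEAP1 libraries lay below all 4 WT libraries for 14 of 48 members, where this held for 9.56% of all genes, and above them for 0 members, where it held for 14.8%. These 14 were ADF7, ADF10, PRF4, PRF5, ACT4, ACT12, PPME1, RALF4, RBOHJ, SUC1, VHA-E2, AGL94, AGL104 and MGH3. Within AI alone, both amiR-SEAP1 libraries lay below both WT libraries for 38 members and above them for 7, where 33.8% and 48.7% of all genes did. Within FLW, both lay below for 43 members, where 38.2% of all genes did, and above for AGL65 only, where 37.4% of all genes did. In bulk inflorescences, fewer pollen grains and less RNA per grain cannot be told apart.

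**Figure D1:**
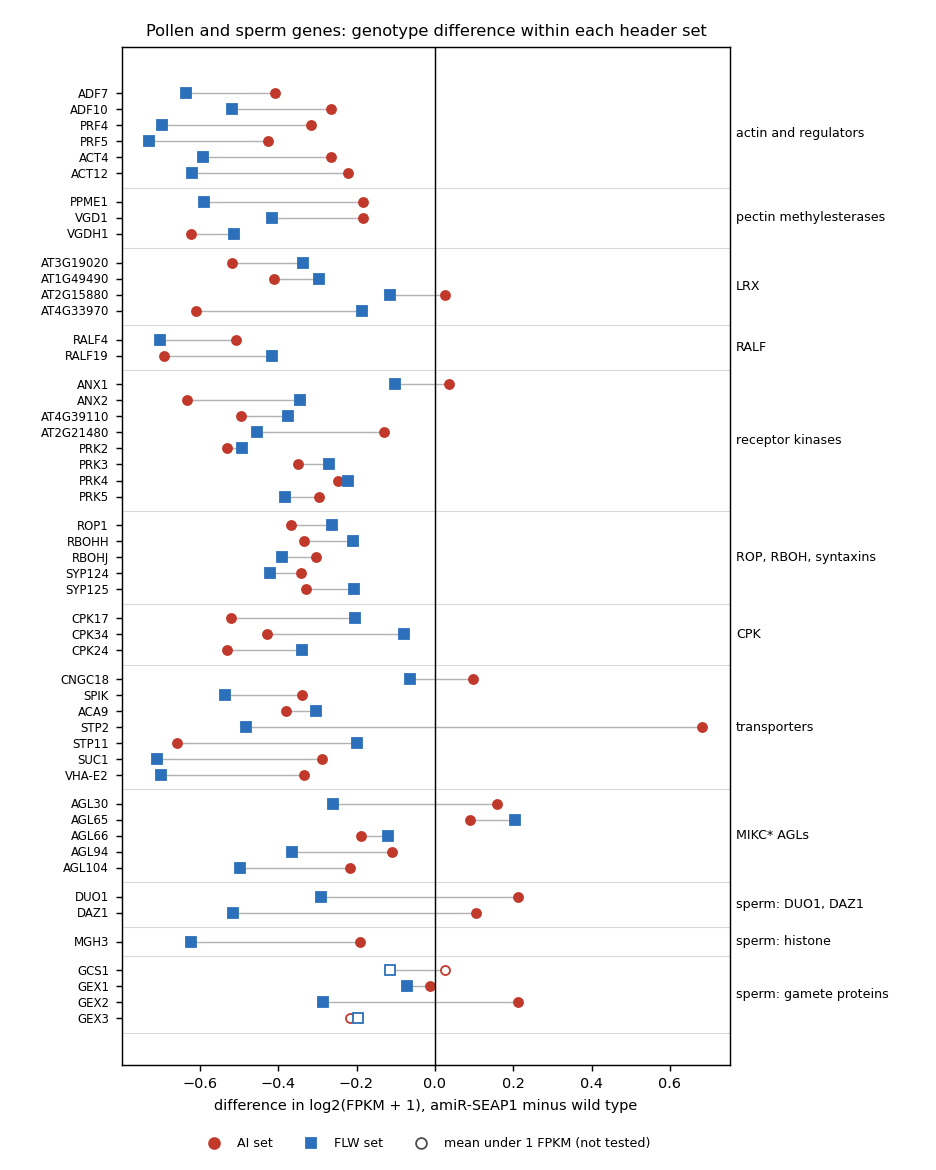
Difference in log2(FPKM + 1) between amiR-SEAP1 and wild type for each of the 50 genes, in the AI set (red circles) and the FLW set (blue squares), grouped by role. Most points lie left of 0, the 6 actin genes are further left in FLW than in AI, and STP2, AGL30, DUO1, DAZ1 and GEX2 are among the genes with an AI point right of 0 and a FLW point left of 0.

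The actin group was even across its members. Each of the 6 lay lower in amiR-SEAP1 in both sets, with no overlap between genotypes, and each difference was more negative in FLW (median -0.63) than in AI (median -0.29). Whether the difference between the sets exceeds error was not tested, since a pair counts as 1 sample. PRF4 (AT4G29340) encodes a profilin, a protein that binds actin monomers and feeds filament growth. Its level was 89.0 and 94.5 FPKM in AI and 83.4 and 73.3 FPKM in FLW of amiR-SEAP1, against 117 and 112 FPKM in AI and 127 and 128 FPKM in FLW of wild type. The genotype means of PRF4 were 85.0 ± 9.48 FPKM in amiR-SEAP1 and 121 ± 9.16 FPKM in wild type (SD, n = 2 sets each). PRF5 (AT2G19770), another pollen profilin, had 75.7 and 77.6 (AI) and 50.9 and 48.5 FPKM (FLW) in amiR-SEAP1, against 105 and 101 (AI) and 82.8 and 83.2 FPKM (FLW) in wild type. PRF5 was higher in AI than in FLW in both genotypes, the reverse of most members, while the genotype gap was present in each set. The log2 differences between genotypes were -0.51 ± 0.14 for PRF4 (limma adjusted p = 0.305) and -0.58 ± 0.12 for PRF5 (limma adjusted p = 0.282).

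ADF7 (AT4G25590) and ADF10 (AT5G52360) encode actin depolymerising factors of pollen, which sever and turn over filaments. For ADF7, the amiR-SEAP1 libraries held 34.3 and 34.9 FPKM in AI and 31.7 and 34.9 FPKM in FLW, and the wild-type libraries 46.3 and 46.1 FPKM in AI and 52.7 and 52.0 FPKM in FLW. For ADF10, the amiR-SEAP1 libraries held 39.1 and 42.8 FPKM in AI and 35.7 and 36.0 FPKM in FLW, and the wild-type libraries 51.1 and 47.7 FPKM in AI and 49.9 and 53.7 FPKM in FLW. The amiR-SEAP1 values of ADF7 were nearly the same in both sets, and the WT values were higher in FLW. ACT4 (AT5G59370) and ACT12 (AT3G46520) are actins of the reproductive class. ACT4 stood at 23.4 and 23.8 FPKM in AI and 26.7 and 25.7 FPKM in FLW of amiR-SEAP1, against 29.2 and 27.9 FPKM in AI and 38.9 and 41.0 FPKM in FLW of wild type. ACT12 stood at 46.8 and 46.1 FPKM in AI and 39.7 and 39.7 FPKM in FLW of amiR-SEAP1, against 54.6 and 54.1 FPKM in AI and 62.5 and 60.7 FPKM in FLW of wild type. ACT12 overlaps another gene in the reference, as do AT4G33970, ANX1, PRK4, ROP1, SYP124, SYP125, CPK34, CPK24, ACA9, DUO1 and GEX2, and without a statement of strand use, the reads of such genes and their partners cannot be told apart. The summed FPKM of the 6 genes was 0.792 of WT in AI and 0.632 of WT in FLW.

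Pectin methylesterases, which remove methyl groups from pectin and so set how stiff the tube wall is, were the most abundant members. The 3 genes made up 48.8% to 51.6% of the vegetative sum of FPKM in amiR-SEAP1 libraries and 49.0% to 49.7% in WT libraries. VGD1 (AT2G47040), needed for tube growth through the style, reached 443 and 442 (AI) and 630.1 and 636 FPKM (FLW) in amiR-SEAP1, against 505 and 501 (AI) and 843 and 848 FPKM (FLW) in wild type. Its genotypes were apart within each set and overlapped across sets, since all FLW libraries were higher than all AI libraries. PPME1 (AT1G69940), a pollen-specific pectin methylesterase, had 398 and 408 (AI) and 370.0 and 363 FPKM (FLW) in amiR-SEAP1, against 453 and 463 (AI) and 558 and 545 FPKM (FLW) in wild type. All amiR-SEAP1 libraries of PPME1 were below all its WT libraries, with a log2 difference of -0.39 ± 0.20 (SE, limma adjusted p = 0.437). VGDH1 (AT2G47030), a close neighbour and near copy of VGD1, averaged 154 ± 89.5 FPKM in amiR-SEAP1 and 225 ± 121 FPKM in wild type (SD, n = 2 sets), with log2 differences of -0.62 in AI and -0.51 in FLW. How reads shared by VGD1 and VGDH1, or by the actins, were divided is not stated, so the separate values of such copies are uncertain.

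The 4 LRX genes, which encode wall proteins with leucine-rich repeats, carry no gene name in the files or in RefSeq. The highest of them, AT1G49490, stood at 13.8 and 13.6 FPKM in AI and 72.5 and 73.9 FPKM in FLW of amiR-SEAP1, against 18.0 and 19.0 FPKM in AI and 88.9 and 91.2 FPKM in FLW of wild type. The gap between the sets was several times the gap between genotypes for this gene, and amiR-SEAP1 was lower inside each set. Its genotype difference was -0.35 ± 0.091 (log2, SE, limma adjusted p = 0.298). AT3G19020 and AT4G33970 were also lower in both sets, at -0.52 and -0.61 in AI and at -0.34 and -0.18 in FLW. AT2G15880 was the exception, with 0.026 in AI, where its libraries overlapped between genotypes, and -0.11 in FLW.

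RALF4 (AT1G28270) and RALF19 (AT2G33775) encode the tube's own signalling peptides. RALF4 had 75.3 and 79.7 FPKM in AI and 82.5 and 89.5 FPKM in FLW of amiR-SEAP1, against 111 and 109.7 FPKM in AI and 142 and 139 FPKM in FLW of wild type. This was the most negative genotype difference of any tested member, -0.60 ± 0.11 on the log2 scale (SE, limma adjusted p = 0.271), with means of 81.8 ± 5.99 FPKM in amiR-SEAP1 and 125 ± 21.1 FPKM in wild type (SD, n = 2 sets). RALF19 averaged 48.1 ± 26.0 FPKM in amiR-SEAP1 and 68.8 ± 28.7 FPKM in wild type (SD, n = 2 sets), and its difference was -0.69 in AI and -0.42 in FLW. RALF4 was thus further below WT in FLW and RALF19 in AI.

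Of the 8 receptor kinases, 7 were lower in amiR-SEAP1 in both sets, and the 8 genotype differences over the sets lay between -0.51 and -0.033. PRK2 (AT2G07040), a pollen receptor kinase that acts on ROP signalling at the tip, was the highest, and the amiR-SEAP1 libraries held 37.4 and 36.3 FPKM in AI and 76.4 and 77.2 FPKM in FLW, and the wild-type libraries 54.1 and 53.2 FPKM in AI and 106 and 110.5 FPKM in FLW. Both sets gave PRK2 a similar difference, -0.53 in AI and -0.49 in FLW, and its fitted value was -0.51 ± 0.091 (SE, limma adjusted p = 0.271). PRK3, PRK4 and PRK5, related pollen receptor kinases, averaged 6.13, 16.8 and 4.84 FPKM over the 8 libraries and had differences of -0.31 ± 0.12, -0.23 ± 0.093 and -0.34 ± 0.12. ANX1 (AT3G04690) and ANX2 (AT5G28680) are paired receptor kinases that prevent early bursting of the tube. They parted here: ANX2 was -0.63 in AI and -0.34 in FLW, whereas ANX1 was 0.035 in AI and -0.10 in FLW. The libraries of ANX1 overlapped between genotypes in AI. AT4G39110 and AT2G21480, likewise without a gene name in the files or in RefSeq, had differences of -0.43 ± 0.091 and -0.29 ± 0.14.

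ROP1 (AT3G51300), the GTPase that organises polar growth of the tube, held 19.7 and 20.3 (AI) and 25.3 and 26.4 FPKM (FLW) in amiR-SEAP1, against 26.4 and 25.8 (AI) and 29.6 and 33.0 FPKM (FLW) in wild type. Its amiR-SEAP1 libraries were below the WT libraries in each set, and the FLW libraries of amiR-SEAP1 reached the AI libraries of WT. The difference was -0.32 ± 0.09 (log2, SE, limma adjusted p = 0.314). RBOHH (AT5G60010) and RBOHJ (AT3G45810) encode NADPH oxidases that make reactive oxygen species at the tip. RBOHJ, a low gene, had 1.98 and 1.77 (AI) and 1.84 and 1.65 FPKM (FLW) in amiR-SEAP1, against 2.55 and 2.55 (AI) and 2.66 and 2.53 FPKM (FLW) in wild type. Its genotypes did not overlap, with means of 1.81 ± 0.0940 FPKM in amiR-SEAP1 and 2.57 ± 0.0321 FPKM in wild type (SD, n = 2 sets) and a log2 difference of -0.35 ± 0.15 (SE, limma adjusted p = 0.387). RBOHH averaged 2.80 ± 0.604 FPKM in amiR-SEAP1 and 3.56 ± 0.438 FPKM in wild type (SD, n = 2 sets), and one amiR-SEAP1 library in FLW exceeded the WT libraries in AI. The syntaxins SYP124 and SYP125, membrane fusion proteins of secretion, had differences of -0.38 ± 0.11 and -0.27 ± 0.11.

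CPK17, CPK34 and CPK24 are calcium-dependent protein kinases of pollen that relay calcium signals to channels. CPK24 (AT2G31500), the highest, stood at 18.6 and 17.9 FPKM in AI and 53.7 and 52.8 FPKM in FLW of amiR-SEAP1, against 27.3 and 26.4 FPKM in AI and 67.9 and 67.4 FPKM in FLW of wild type. All 3 kinases were further below WT in AI than in FLW. The AI and FLW differences were -0.53 and -0.34 for CPK24, -0.52 and -0.20 for CPK17, and -0.43 and -0.079 for CPK34. In FLW the CPK34 libraries overlapped between genotypes. The actin genes showed the opposite order of the sets in every member, and neither order was tested.

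Among 7 transport genes, 5 were lower in both sets. SUC1 (AT1G71880), a sucrose and proton symporter that loads sugar into pollen, was the highest, and the amiR-SEAP1 libraries held 117 and 114 FPKM in AI and 96.9 and 98.9 FPKM in FLW, and the wild-type libraries 139.9 and 142 FPKM in AI and 161 and 161 FPKM in FLW. VHA-E2 (AT3G08560), a pollen isoform of a vacuolar proton pump subunit, had 36.3 and 37.8 FPKM in AI and 35.1 and 30.6 FPKM in FLW of amiR-SEAP1, against 47.4 and 46.6 FPKM in AI and 53.5 and 54.2 FPKM in FLW of wild type. Neither gene overlapped between genotypes, and their log2 differences were -0.50 ± 0.15 (limma adjusted p = 0.322) and -0.52 ± 0.13 (limma adjusted p = 0.294). SPIK, the inward potassium channel of the tube, ACA9, a calcium pump of the plasma membrane, and STP11, a hexose transporter of the tube, had differences of -0.44 ± 0.12, -0.34 ± 0.088 and -0.43 ± 0.14. For STP11 the AI difference was -0.66 and the FLW difference -0.20. CNGC18, the calcium-permeable channel of the tip, had 0.10 in AI and -0.063 in FLW, and its libraries overlapped between genotypes in FLW.

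STP2 (AT1G07340), a monosaccharide transporter known from early pollen rather than from tubes, behaved unlike the other sugar transporters. Its level was 24.8 and 24.5 FPKM in amiR-SEAP1 and 15.2 and 14.8 FPKM in wild type in AI, and 14.5 and 14.6 FPKM in amiR-SEAP1 and 19.8 and 21.7 FPKM in wild type in FLW. The amiR-SEAP1 libraries were the highest of all in AI and the lowest in FLW, so the sets gave differences of 0.68 and -0.48, and the fitted difference over both sets was 0.10 ± 0.31 (SE, limma adjusted p = 0.891). The 16 tested tapetum and pollen wall genes had the same order of signs in 15 cases, with a median of 0.79 in AI and -0.40 in FLW. Opposite signs in either order held for 34.4% of all tested genes. The part of tapetum tissue in the STP2 values was not tested.

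The MIKC* MADS factors control late pollen gene expression, with AGL66 and AGL104 acting as partners of AGL30, AGL65 and AGL94. They showed the smallest differences of the vegetative roles, with a median of -0.15. AGL30 (AT2G03060), the highest, had 13.9 and 14.5 (AI) and 16.8 and 18.6 FPKM (FLW) in amiR-SEAP1, against 12.5 and 12.7 (AI) and 21.2 and 21.6 FPKM (FLW) in wild type. It was above WT in AI and below it in FLW with no overlap in either set. AGL104 (AT1G22130) held 9.97 and 8.81 (AI) and 7.62 and 8.26 FPKM (FLW) in amiR-SEAP1, against 10.2 and 12.0 (AI) and 12.0 and 11.2 FPKM (FLW) in wild type. AGL94 (AT1G69540) held 5.68 and 5.49 (AI) and 4.62 and 4.19 FPKM (FLW) in amiR-SEAP1, against 6.33 and 5.89 (AI) and 5.79 and 6.12 FPKM (FLW) in wild type. For both genes all amiR-SEAP1 libraries were below all WT libraries, with log2 differences of -0.36 ± 0.12 (limma adjusted p = 0.345) and -0.24 ± 0.13 (limma adjusted p = 0.459). AGL65 was the only member higher in both sets (0.089 in AI and 0.21 in FLW), and AGL66 had -0.19 in AI and -0.12 in FLW.

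**Figure D2:**
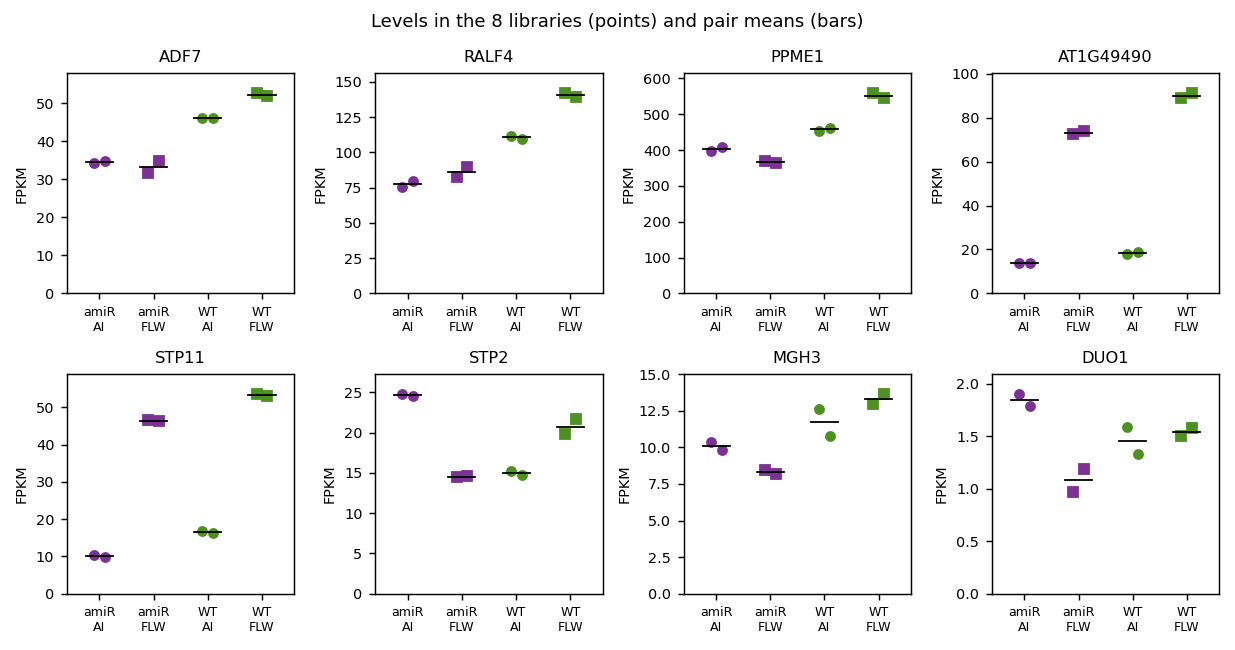
FPKM of 8 of the genes in every library, with circles for AI, squares for FLW, purple for amiR-SEAP1, green for wild type and a bar at each pair mean; each axis starts at 0. ADF7, RALF4, PPME1 and MGH3 lie lower in all amiR-SEAP1 libraries, AT1G49490 and STP11 are set apart mainly by AI and FLW, and STP2 and DUO1 are highest in amiR-SEAP1 AI and lowest in amiR-SEAP1 FLW.

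Of 5 tested sperm genes, MGH3 and GEX1 were lower in amiR-SEAP1 in both sets, and DUO1, DAZ1 and GEX2 were higher in AI and lower in FLW. MGH3 (AT1G19890), a histone H3 variant of male gametes, was the highest and had 10.3 and 9.83 FPKM in AI and 8.43 and 8.16 FPKM in FLW of amiR-SEAP1, against 12.6 and 10.8 FPKM in AI and 12.9 and 13.7 FPKM in FLW of wild type. All its amiR-SEAP1 libraries were below all its WT libraries, with a log2 difference of -0.41 ± 0.15 (SE, limma adjusted p = 0.358) and more of it in FLW (-0.62) than in AI (-0.19). MGH3 was the only sperm gene among the 32 called with the replicate number as a block.

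DUO1 (AT3G60460), the MYB factor that heads the sperm programme, had 1.91 and 1.79 FPKM in amiR-SEAP1 and 1.58 and 1.34 FPKM in wild type in AI, and 0.968 and 1.19 FPKM in amiR-SEAP1 and 1.51 and 1.58 FPKM in wild type in FLW. DAZ1 (AT2G17180), a zinc finger repressor that DUO1 switches on, had 2.65 and 2.31 FPKM in amiR-SEAP1 and 2.29 and 2.17 FPKM in wild type in AI, and 1.37 and 1.36 FPKM in amiR-SEAP1 and 2.43 and 2.33 FPKM in wild type in FLW. Both regulators were above WT in the amiR-SEAP1 AI libraries and below it in FLW, without overlap inside a set. The AI and FLW differences were 0.21 and -0.29 for DUO1 and 0.11 and -0.52 for DAZ1.

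GEX1 (AT5G55490), a nuclear membrane protein of gametes, stood at 3.75 and 2.98 (AI) and 4.82 and 4.46 FPKM (FLW) in amiR-SEAP1, against 3.55 and 3.22 (AI) and 5.10 and 4.76 FPKM (FLW) in wild type. Its genotypes overlapped in both sets, and the difference was -0.042 ± 0.13 (SE, limma adjusted p = 0.889). GEX2 (AT5G49150), a surface protein for gamete attachment, had 1.96 and 2.07 (AI) and 1.90 and 1.12 FPKM (FLW) in amiR-SEAP1, against 1.46 and 1.76 (AI) and 2.37 and 1.71 FPKM (FLW) in wild type. The WT replicates of GEX2 in FLW differed from each other by more than the genotype means of that set did. GCS1 (AT4G11720), the fusion protein of sperm, was under the test's limit with 0.594 and 0.933 (AI) and 0.613 and 0.819 FPKM (FLW) in amiR-SEAP1, against 0.805 and 0.645 (AI) and 1.000 and 0.720 FPKM (FLW) in wild type. GEX3 (AT5G16020), a membrane protein of gametes, was likewise low, with 0.436 and 0.543 (AI) and 0.610 and 0.904 FPKM (FLW) in amiR-SEAP1, against 0.855 and 0.611 (AI) and 0.874 and 1.15 FPKM (FLW) in wild type. Levels of DUO1, DAZ1, GCS1, GEX2 and GEX3 rest on few fragments, and across the sets the genotypes overlapped for each of them and for GEX1.

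Side by side, 37 of 43 vegetative genes and 2 of 5 tested sperm genes were lower in both sets, where 28.9% of all tested genes were. Median differences were -0.33 for vegetative and 0.11 for sperm genes in AI, and -0.37 for vegetative and -0.29 for sperm genes in FLW. Over both sets the medians were -0.36 for vegetative and -0.042 for sperm genes. The sperm median of AI rests on 5 genes and was -0.012 once genes that overlap another gene were left out, an alternative chosen after seeing the data. In FLW it was -0.51 without amiR-SEAP1 replicate 1 and -0.44 without WT replicate 2, and over both sets it was -0.15 without amiR-SEAP1 replicate 1 and -0.20 without genes that overlap another. The classes also differ in level, since sperm genes averaged 0.75 to 10.85 FPKM and vegetative genes 2.19 to 606 FPKM over the 8 libraries. The added 1 FPKM compresses differences of low genes. With 0.1 FPKM added instead, the medians over both sets were -0.40 for vegetative and -0.079 for sperm genes. They were -0.39 and 0.14 in AI, and -0.42 and -0.48 in FLW. The gap over both sets was -0.32 with either added value, while the order of the classes in FLW turned. A further list of sperm genes, given below, had medians of -0.49 in AI and -0.65 in FLW (5 tested genes). These lay below the vegetative medians, so the order of the classes depended on which sperm genes were read.

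The vegetative sum was 1807 and 1827 FPKM in AI and 2489 and 2496 FPKM in FLW of amiR-SEAP1, against 2235 and 2225 FPKM in AI and 3470.3 and 3469 FPKM in FLW of wild type. The sperm sum was 21.6 and 20.5 FPKM in AI and 18.7 and 18.0 FPKM in FLW of amiR-SEAP1, against 23.2 and 20.5 FPKM in AI and 26.2 and 25.9 FPKM in FLW of wild type. In FLW the amiR-SEAP1 sums were 0.718 of WT for vegetative and 0.704 of WT for sperm genes. In AI these ratios were 0.815 and 0.964, and the sperm sums of the genotypes overlapped. The sperm sum came to 1.16% (AI) and 0.737% (FLW) of the vegetative sum in amiR-SEAP1, and to 0.979% (AI) and 0.751% (FLW) in wild type. This percent overlapped between genotypes in FLW, was higher in amiR-SEAP1 than in wild type in AI without overlap, and was higher in AI than in FLW in both genotypes. Within the sperm sum MGH3 alone supplied 9.19 of 19.7 FPKM in amiR-SEAP1 and 12.5 of 24.0 FPKM in wild type.

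**Figure D3:**
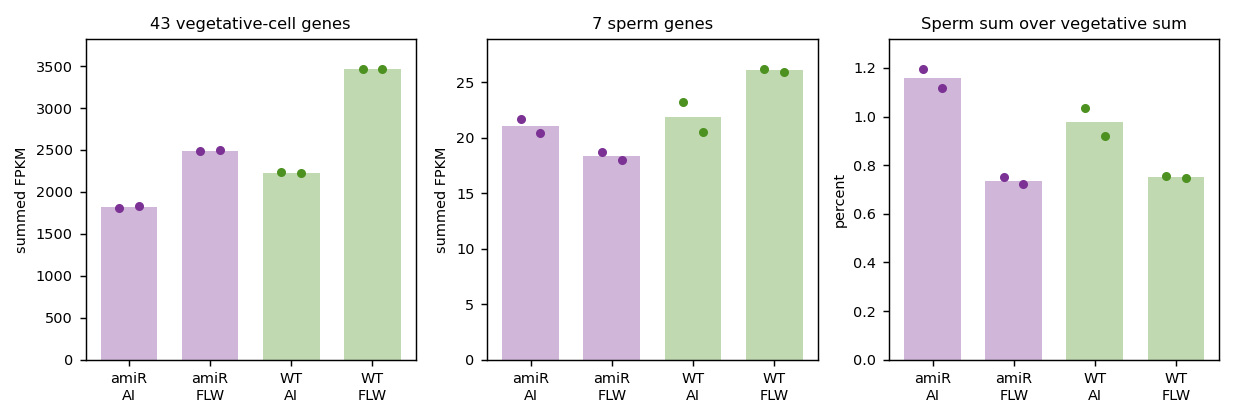
Summed FPKM of the 43 vegetative-cell genes (left), of the 7 sperm genes (middle), and the sperm sum as a percent of the vegetative sum (right), with a point per library and a bar at each pair mean. The vegetative sum is lower in amiR-SEAP1 in both sets, the sperm sum is lower in FLW and overlaps in AI, and the percent is higher in AI than in FLW for both genotypes.

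The header sets differed more than the genotypes for a part of the vegetative genes. All 4 AI libraries lay below all 4 FLW libraries for 28 of 48 members, where 18% of all genes did, and above them for 0, where 15.9% did. These were 27 vegetative genes and GEX1. In 13 members the difference, AI minus FLW, was -1 or lower on the log2 scale in both genotypes, where 0.916% of all tested genes reached that size. No member reached 1 or more in both genotypes, where 0.145% of genes did. The 13 were the 4 LRX genes, VGDH1, ANX2, AT4G39110, PRK2, PRK4, PRK5, CPK17, CPK24 and STP11.

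For the set difference, 0 of 20743 genes passed the FDR in the limma fit on pair means, with a smallest adjusted p of 0.0623, and called members were at the background of 0% in each direction. At an unadjusted limma p under 0.05, 29 members were lower and 1 (PRF5) was higher in AI, against 11.4% and 9.37% of all genes (2366 lower and 1944 higher). This count of 0 depended on the scaling, the filter and the design. Scaled to the same FPKM sum, 12 members were called lower and 0 higher, where 0.752% of all genes were called lower and 0.0723% higher. With a filter at 5 FPKM, 12 members were called lower and 0 higher, where 1.13% of all genes were called lower and 0.169% higher. In both cases the called members were the 4 LRX genes, VGDH1, ANX2, AT4G39110, PRK2, PRK4, CPK17, CPK24 and STP11. Without WT replicate 3, 10 members were called lower (0.569% of all genes) and 0 higher (0.0579% of all genes), this list less VGDH1 and PRK2. With a correlation estimated within pairs and no term for genotype, 18 members were called lower (2.86% of all genes) and 0 higher (2.19% of all genes). With 8 libraries taken as independent, 32 members were called lower (26.3% of all genes) and PRF5 higher (22.4% of all genes).

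The LRX genes stood furthest apart. AT1G49490 averaged 16.1 ± 3.42 FPKM in AI and 81.6 ± 11.9 FPKM in FLW (SD, n = 2 genotypes), a difference of -2.28 ± 0.091 on the log2 scale (SE, limma adjusted p = 0.0623). The AI level was 0.151 to 0.226 of the FLW level across the 4 LRX genes in amiR-SEAP1 and 0.198 to 0.262 in wild type. The calcium-dependent kinases followed, at -1.55 ± 0.12 for CPK17 and -1.40 ± 0.10 for CPK24. CPK34 had an AI level of 0.381 of FLW in amiR-SEAP1 and 0.519 in wild type. STP11 averaged 13.4 ± 4.56 FPKM in AI and 49.9 ± 4.93 FPKM in FLW (SD, n = 2 genotypes), a difference of -1.86 ± 0.14 (SE, limma adjusted p = 0.0623).

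Receptor kinases were lower in AI in all 8 cases, with a median of -1.04. Here too ANX1 (-0.50 ± 0.11) and ANX2 (-1.50 ± 0.12) differed in size. The peptides likewise parted. The AI level was 0.901 of the FLW level in amiR-SEAP1 and 0.787 in wild type for RALF4, and 0.446 in amiR-SEAP1 and 0.545 in wild type for RALF19. VGDH1 was at -1.20 ± 0.12, VGD1 at -0.63 ± 0.21 and PPME1 at -0.066 ± 0.20, although all 3 encode pectin methylesterases. The syntaxins SYP124 (-0.995 ± 0.11) and SYP125 (-0.70 ± 0.11) were lower in AI, while RBOHJ was at 0.025 ± 0.15.

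Actin genes and their regulators showed little set difference, with a median of 0.029 and a range of -0.31 (ACT4) to 0.46 (PRF5). SUC1 and VHA-E2 were likewise at 0.022 ± 0.15 and -0.0097 ± 0.13. As for ADF7, ADF10, PRF4, ACT12, PPME1 and MGH3, their amiR-SEAP1 value was higher in AI and their WT value was higher in FLW. Vegetative genes had a median set difference of -0.51, sperm genes 0.039 and all tested genes -0.022.

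**Figure D4:**
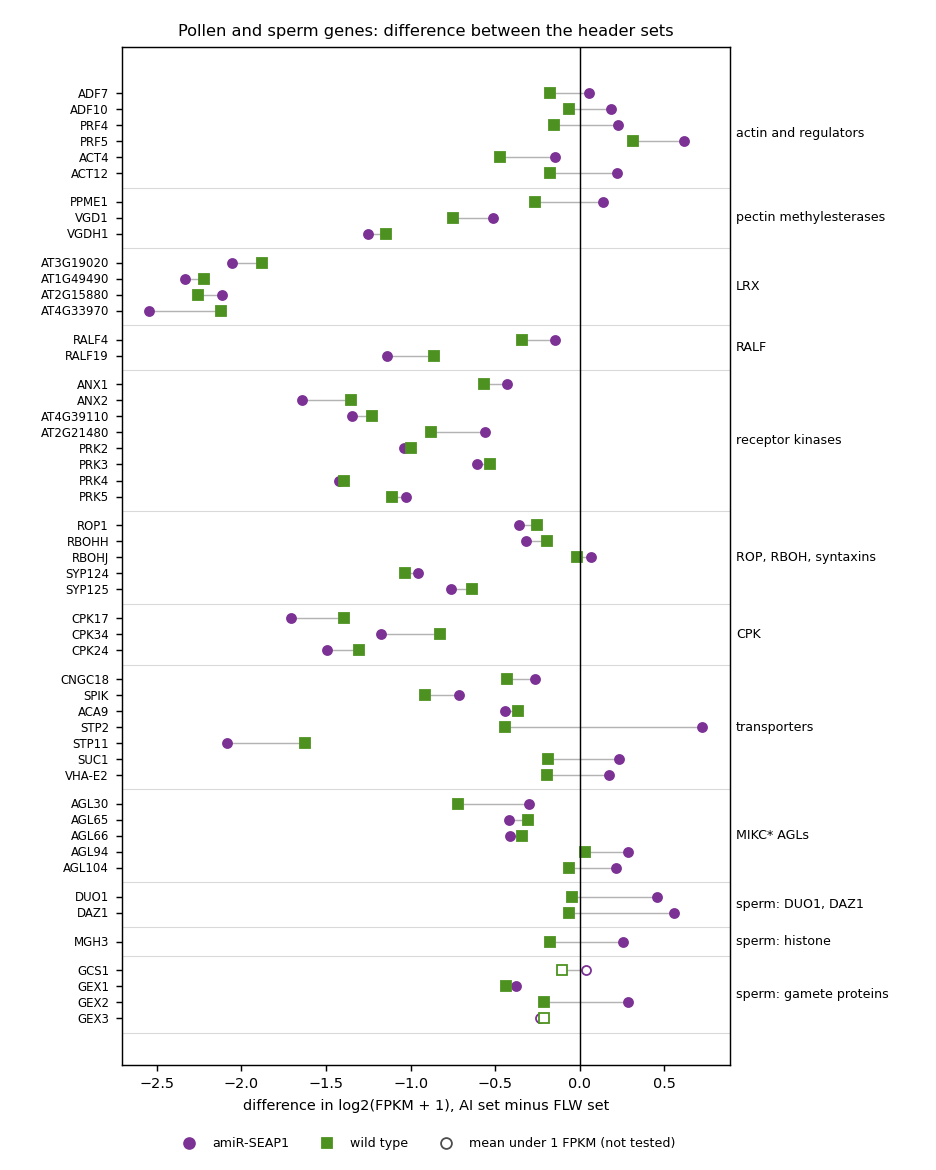
Difference in log2(FPKM + 1) between the AI and FLW sets for each of the 50 genes, in amiR-SEAP1 (purple circles) and wild type (green squares), grouped by role. LRX genes, CPKs, most receptor kinases and STP11 lie far left of 0 in both genotypes, and the actin, MIKC* and sperm genes lie between -0.72 and 0.62.

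Other genes known from the same cells were read as a check of breadth, in lists also chosen with earlier results of these data known. Of 38 tested genes in a further list of pollen tube genes, 30 were lower in amiR-SEAP1 in both sets, where 28.9% of all tested genes were, 1 was higher in both, where 36.7% were, and the medians were -0.30 in AI and -0.36 in FLW. None passed the FDR in the limma fit, and 15 were lower at an unadjusted p under 0.05, where 7.16% of all tested genes were. The list includes ADF8 and ADF11, which are known from root hairs. The smallest p values belonged to FH3, a formin that nucleates actin filaments (-0.71 ± 0.12), LIP1, a kinase of tube guidance (-0.50 ± 0.092), and LLG3, a co-receptor of the RALF receptors (-0.61 ± 0.11). FH3 had 4.21 and 3.41 (AI) and 4.47 and 4.99 FPKM (FLW) in amiR-SEAP1, against 7.01 and 6.60 (AI) and 8.47 and 8.42 FPKM (FLW) in wild type.

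Among 9 further sperm genes, 5 were tested, and 4 of them were lower in both sets, against the same background of 28.9%, with medians of -0.49 in AI and -0.65 in FLW. DAZ3, a target of DUO1, had 7.76 and 6.78 FPKM in AI and 8.45 and 8.24 FPKM in FLW of amiR-SEAP1, against 12.5 and 12.2 FPKM in AI and 13.3 and 14.0 FPKM in FLW of wild type. Its genotypes did not overlap, and the difference was -0.67 ± 0.10 (SE, limma adjusted p = 0.269). PCR11, also a target of DUO1, was at -0.70 ± 0.11 and DAU2, a membrane protein gene, at -0.56 ± 0.12. The further sperm genes thus had lower medians than the sperm members, and lower than the vegetative genes (-0.33 in AI and -0.37 in FLW). With this list the order of vegetative and sperm genes was the reverse of that in the members. Neither difference was tested.

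The lists for tapetum and pollen coat had opposite signs in the sets. The summed FPKM of tapetum and pollen wall genes lay between 730.4 and 1233 in amiR-SEAP1 and between 708 and 989 in wild type, and was 1.73 times WT in AI and 0.744 times WT in FLW. Of its 16 tested genes 0 were lower in both sets. The pollen coat sum ranged over 1831 to 2579 FPKM in amiR-SEAP1 and 2199.9 to 2876 FPKM in wild type, with ratios of 1.16 in AI and 0.643 in FLW. The same order of signs, positive in AI and negative in FLW, was found in 8 of 48 tested members, which were 5 of 43 vegetative genes (STP2, AGL30, CNGC18, ANX1 and AT2G15880) and 3 of 5 sperm genes (DUO1, DAZ1 and GEX2). The share of all tested genes with this order was not counted, and opposite signs in either order held for 34.4% of them. The 8 members are therefore not shown to exceed the background. The part of bud stage or anther tissue in any of these differences was not tested.

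BCP1, a gene of microspores and pollen, had 59.8 and 59.2 (AI) and 271 and 268 FPKM (FLW) in amiR-SEAP1, against 103 and 103 (AI) and 309 and 316 FPKM (FLW) in wild type. Its AI minus FLW difference of -1.88 ± 0.18 was of the size seen in the LRX genes, whereas the microspore regulators LBD10 (-0.34 ± 0.15) and LBD27 (-0.063 ± 0.18) were nearer 0. The 3 microspore genes summed to 85.9 to 296 FPKM in amiR-SEAP1 and 129 to 352 FPKM in wild type. The late stamen factors MYB21, MYB24 and MYB57, which act in jasmonate-dependent stamen maturation, were lower in amiR-SEAP1 in both sets, with medians of -1.42 in AI and -0.26 in FLW. They summed to 90.6 to 111 FPKM in amiR-SEAP1 and 125 to 150.3 FPKM in wild type. MYB57 had 4.11 and 3.30 (AI) and 13.4 and 13.6 FPKM (FLW) in amiR-SEAP1, against 14.1 and 13.5 (AI) and 18.3 and 16.2 FPKM (FLW) in wild type. Among 7 genes of green tissue, 6 were higher in amiR-SEAP1 in both sets, where 36.7% of all tested genes were. The medians of this list were 0.12 in AI and 0.020 in FLW. Only CAB3 had all amiR-SEAP1 libraries above all WT libraries. The 7 genes summed to 10183 to 12247 FPKM in amiR-SEAP1 and 9546 to 11718 FPKM in wild type, with ratios to WT of 1.08 in AI and 1.07 in FLW. No gene of any of these lists passed the FDR, and the part of these tissues in the pollen gene values was not tested.

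**Figure D5:**
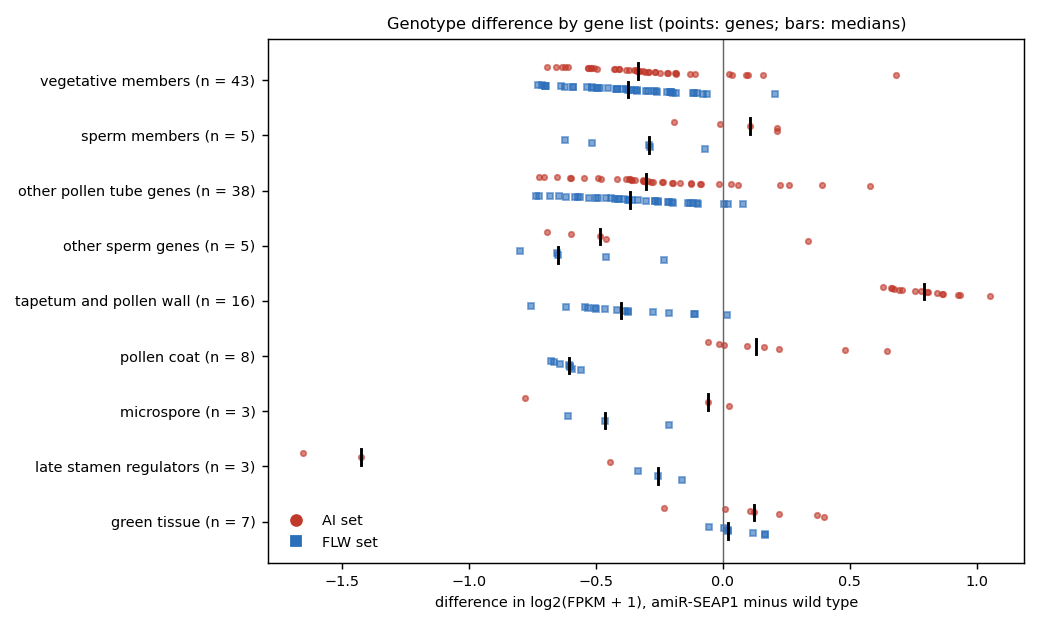
Difference in log2(FPKM + 1), amiR-SEAP1 minus wild type, by gene list in the AI set (red circles) and the FLW set (blue squares), with a point per tested gene and a bar at each median. The medians and most points of the vegetative members and of the other pollen tube genes lie left of 0 in both sets, the tapetum genes lie right of 0 in AI and mostly left of 0 in FLW, and the late stamen factors MYB24 and MYB57 lie far left of 0 in AI.

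Across the 48 tested members, the genotype difference was more negative in genes of higher level (Spearman rho = -0.69), while over 20402 tested genes with a RefSeq span rho was -0.071. Longer genes had a more negative set difference (rho = -0.36 in the members and -0.11 over all). These are descriptions across genes that share the same libraries, and low genes are compressed toward 0 by the added 1 FPKM. In the set difference, all 4 LRX genes lay below all 6 actin genes.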

How the data were processed

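Each mRNA file holds FPKM, as deposited by the authors and per the file headers. HISAT2 and TAIR10 stand in the submitters' processing notes without versions. How FPKM was computed, with which annotation and strand setting, is not stated. Small RNA files were not used. RefSeq (assembly TAIR10.1) gave symbols for 28932 of 33610 IDs and showed that 12 members overlap another gene. No coordinates are given.

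The members, gene lists and tests were chosen with earlier results of these data known. Both libraries of a genotype in a header set were averaged as log2(FPKM + 1). The 20743 genes that averaged 1 FPKM or more were fitted with limma 3.58.1 (R 4.3.3), with a trend and terms for set and genotype, and p-values were adjusted by the Benjamini-Hochberg method at an FDR of 0.05. The fit was tested on simulated data. Their noise was set in advance and not estimated from these libraries, so that run does not vouch for calls here. Differences on this scale understate the change of low genes. No test was run within a set. Libraries with the same number in both genotypes moved together about their group means (r = 0.398, 0.420, 0.405 and 0.430), and so did the other-numbered libraries of that set. For amiR-SEAP1 replicate 1, r was 0.416 with WT replicate 2. The measure thus shows the shared set and does not show pairing by number. The counts with the replicate block stand beside the results as an alternative only, since that fit treats both libraries of a pair as separate samples.

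All 50 members are named. Values in every library are given for the sperm genes, the highest gene of each role and genes whose genotypes do not overlap, and of other lists at most 3 genes with the smallest p. STP2 was added after its values were seen. Alternatives were pseudocounts, filters, scalings, designs and leaving out each library in turn.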

Additional observations from a re-analysis of the deposited data

Results flagged for a closer look

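In 4 members both amiR-SEAP1 libraries lay above both WT libraries in AI and below both in FLW. The share of all tested genes with this joint order was not counted. Taken singly, 48.7% of them lay above in AI and 38.2% below in FLW. The 4 members are therefore not shown to exceed the background. The log2 differences, amiR-SEAP1 minus WT, were 0.68 in AI and -0.48 in FLW for STP2, 0.16 and -0.26 for AGL30, 0.21 and -0.29 for DUO1, and 0.11 and -0.52 for DAZ1. DUO1 and DAZ1 rest on few fragments. The difference between the sets was not tested, because a genotype has 1 sample in each set.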

How the results depend on the processing

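For genotype, 8 libraries taken as independent gave 4676 genes higher and 3786 lower (members 1 and 37). The pair correlation, without a set term, gave 48 and 17, and the replicate block gave 2852 and 2306 (32 members lower). For the set difference, independent libraries gave 4646 higher and 5451 lower (members 1 and 32). The pair correlation, without a genotype term, gave 454 and 594 (18 members lower). A filter at 5 FPKM gave 27 and 180, and the same FPKM sum gave 15 and 156 (12 members lower in each). Leaving out 1 library gave 0 to 1 genes higher for genotype (1 without amiR-SEAP1 replicate 3). For the set it gave 0 to 12 genes higher, 0 to 118 lower and 0 to 10 members lower, where every count above 0 came without WT replicate 3. The replicate block could not be set beside the set difference, since replicate numbers lie within sets.

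The vegetative genotype median was -0.40 with pseudocount 0.1 and -0.33 at the same FPKM sum. In AI the vegetative median was -0.39 with pseudocount 0.1, -0.29 at the same sum and -0.32 without overlapping genes. In FLW it was -0.42, -0.36 and -0.42, and -0.39 to -0.35 without 1 library. The FLW sperm median was -0.48 with pseudocount 0.1, -0.52 without overlapping genes and -0.51 to -0.29 without 1 library. The AI sperm median was -0.012, and the vegetative set median -0.38, without overlapping genes.

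Signs turned in single differences near 0, none of them called. For genotype, CNGC18 was -0.0011 by quantile normalization, and without 1 library CNGC18 ranged over -0.020 to 0.055, GEX2 over -0.15 to 0.076 and GEX1 over -0.11 to 0.022. For the set, SUC1 was -0.015, RBOHJ -0.00039 and ACT12 -0.015 at the same FPKM sum, and SUC1 was -0.060 and PRF4 -0.023 by quantile normalization. Without 1 library, MGH3 ranged over -0.013 to 0.091, VHA-E2 over -0.058 to 0.039, RBOHJ over -0.00097 to 0.051, PRF4 over -0.0091 to 0.083 and GEX2 over -0.077 to 0.15. The cause was not tested. Pairs counted as 1 sample leave 1 residual degree of freedom, which limits every test here.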
